A study of Homo sapiens with 40 samples.

Results

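The genes described here are 40 genes of DNA replication and of the G1/S transition, named as a list and found by symbol among the 28278 gene symbols of a count table from human cells. The list was drawn up by function, with earlier results of these data known. All 40 genes passed the filter on low counts, with at least 36764 counts each over 40 libraries, so that all of them were among the 16739 genes tested. By role, the list holds 4 transcription factors and cyclins of the G1/S control, 10 genes of origin licensing, 6 of helicase activation, 6 of polymerases and primase and 5 of the sliding clamp and its loader. The other members are 3 genes of strand maturation and single-strand binding, 3 of nucleotide supply and 3 of histone supply, chromatin assembly and uracil repair.

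Before S phase, origins of replication are licensed when the origin recognition complex, CDC6 and CDT1 place the MCM helicase on DNA. CDC45 and the GINS complex then turn the helicase on, the primase and polymerase alpha start each strand, and the clamp loader puts the ring PCNA on the primer for the main polymerases. Many of these genes are targets of the E2F transcription factors, which the RB family holds back until cyclin E and its kinase release them, and E2F1 and the cyclin E genes are E2F targets themselves. HEK293T is a human embryonic kidney line that carries adenovirus E1A and the SV40 large T antigen, proteins known to bind the RB family.

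The study asked about stress signalling from mitochondria and the mitochondrial carrier SLC25A12, in 5 lines of HEK293T cells, each given antimycin A at 40 nM, a blocker of respiratory complex III, or vehicle for 6 hours. The lines were labelled SLC25A12 knockout with SLC25A12-F137S and dMTS-DELE1 (called dMTS-DELE1 cells here), knockout with SLC25A12-F137S (F137S cells), knockout with SLC25A12-WT, knockout with vector (KO-vector cells) and wild type with vector (WT-vector cells). Each line had 4 poly(A) libraries per treatment, which gives 40 libraries in 10 groups. The labels call them biological replicates without saying whether they came from separate cultures, and they do not say whether a line is a single clone, so p-values measure only the spread between these libraries.

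Library totals ran from 30730335 to 31965438 counts, and the 40 genes took 0.672% to 0.746% of all counts of a library. SLC25A12 averaged 3716, 1853, 38.9 and 3.08 CPM, the count scaled to the size of the library, in vehicle in the dMTS-DELE1, F137S, labelled KO plus SLC25A12-WT and KO-vector libraries, against 38.7 CPM in WT-vector cells. The libraries labelled KO plus SLC25A12-WT thus held SLC25A12 at the level of WT-vector cells. In vehicle 0 of the 16739 genes differed from WT-vector cells by edgeR's quasi-likelihood test (4.65% had an unadjusted p under 0.05). Whether these libraries hold rescued knockout cells or wild-type cells was not tested. They are called the libraries labelled KO plus SLC25A12-WT throughout. DELE1 averaged 5344 CPM in dMTS-DELE1 cells, against 45.9 CPM in F137S cells. Of 8 genes known from HEK293 cells, VIM, KRT8, KRT18, CDH2, NEFM and NEFL were present at 53.4 to 410 CPM on average, while PAX2 (2.59 CPM) and LHX1 (0.434 CPM) were low. Of 12 markers of leukocytes, endothelium, hepatocytes, differentiated kidney and fibroblasts, COL1A1 averaged 18.5 CPM, COL3A1 1.11 CPM and each of the rest under 0.26 CPM, with UMOD at 0 counts in 40 libraries.

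Antimycin moved the replication genes in both directions, by small amounts, and no gene rose in one line and fell in another. E2F1, E2F2, the uracil glycosylase gene UNG and CDT1 rose most on average over the lines, and RFC3, GINS1, POLA1 and PRIM2 fell most. In these bulk samples a shift in the share of cells in a phase of the cycle and a change of RNA per cell cannot be told apart. A gene rose or fell where its p from edgeR's quasi-likelihood test, adjusted by Benjamini-Hochberg over all 16739 tested genes, was under 0.05, and log2 fold changes are given ± their standard error with 4 libraries per group. Of the 40 genes, 12 rose and 11 fell in dMTS-DELE1 cells, where 34.9% of all tested genes passed. In F137S cells 19 rose and 10 fell, where 51.2% of all tested genes passed. The libraries labelled KO plus SLC25A12-WT had 18 genes up and 8 down, with 52.3% of all tested genes past the threshold. KO-vector cells had 18 up and 11 down, with 51% of all genes past it, and WT-vector cells had 19 up and 10 down, with 51.9%. The share of the 40 genes that passed was therefore 57.5% to 72.5% in each line, above that of all tested genes. By direction, 17.6% of all tested genes rose and 17.3% fell in dMTS-DELE1 cells. In the other 4 lines 25.5% to 26.4% rose and 24.7% to 26.4% fell. The members that fell in those lines, 8 to 11 of 40, were near that share. Genes of a like count level were not compared.

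The median log2 fold change of the 40 genes was 0.01, 0.05, 0.04, 0.05 and 0.05 in dMTS-DELE1, F137S, labelled KO plus SLC25A12-WT, KO-vector and WT-vector cells, beside 0.01 to 0.02 for all tested genes. In every line 10 genes rose, namely E2F1, E2F2, CCNE1, CDC6, CDT1, CDC45, PRIM1, RFC2, RFC4 and UNG. The 7 genes that fell in every line were GINS1, GINS3, POLA1, PRIM2, PCNA, RFC3 and FEN1. These are 25% and 17.5% of the members, against 11.3% and 13.1% of all tested genes that rose or fell in the 5 lines. With a change in 4 lines or more, 18 members rose and 8 fell. The 6 genes MCM6, MCM10, GINS2, POLE, RPA2 and TYMS passed in none of the 5 lines. In GENCODE 29 the 7 genes that fell in every line span 4608 (FEN1) to 332045 bases (PRIM2). Among them POLA1 spans 303068, RFC3 148510 and GINS3 111065 bases. The 10 genes that rose in every line span 6046 (CDT1) to 41154 bases (CDC45). The part of gene length in these responses was not tested. Among the calls in every line, that of RFC2 in dMTS-DELE1 cells was lost without antimycin replicate 2 or 4 or vehicle replicate 3 (edgeR adjusted p = 0.079 to 0.17), that of PRIM2 in dMTS-DELE1 cells without vehicle replicate 3 (adjusted p = 0.056) and that of GINS3 in labelled KO plus SLC25A12-WT without antimycin replicate 1 or 3 or vehicle replicate 3 (adjusted p = 0.105 to 0.154).

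**Figure D1:**
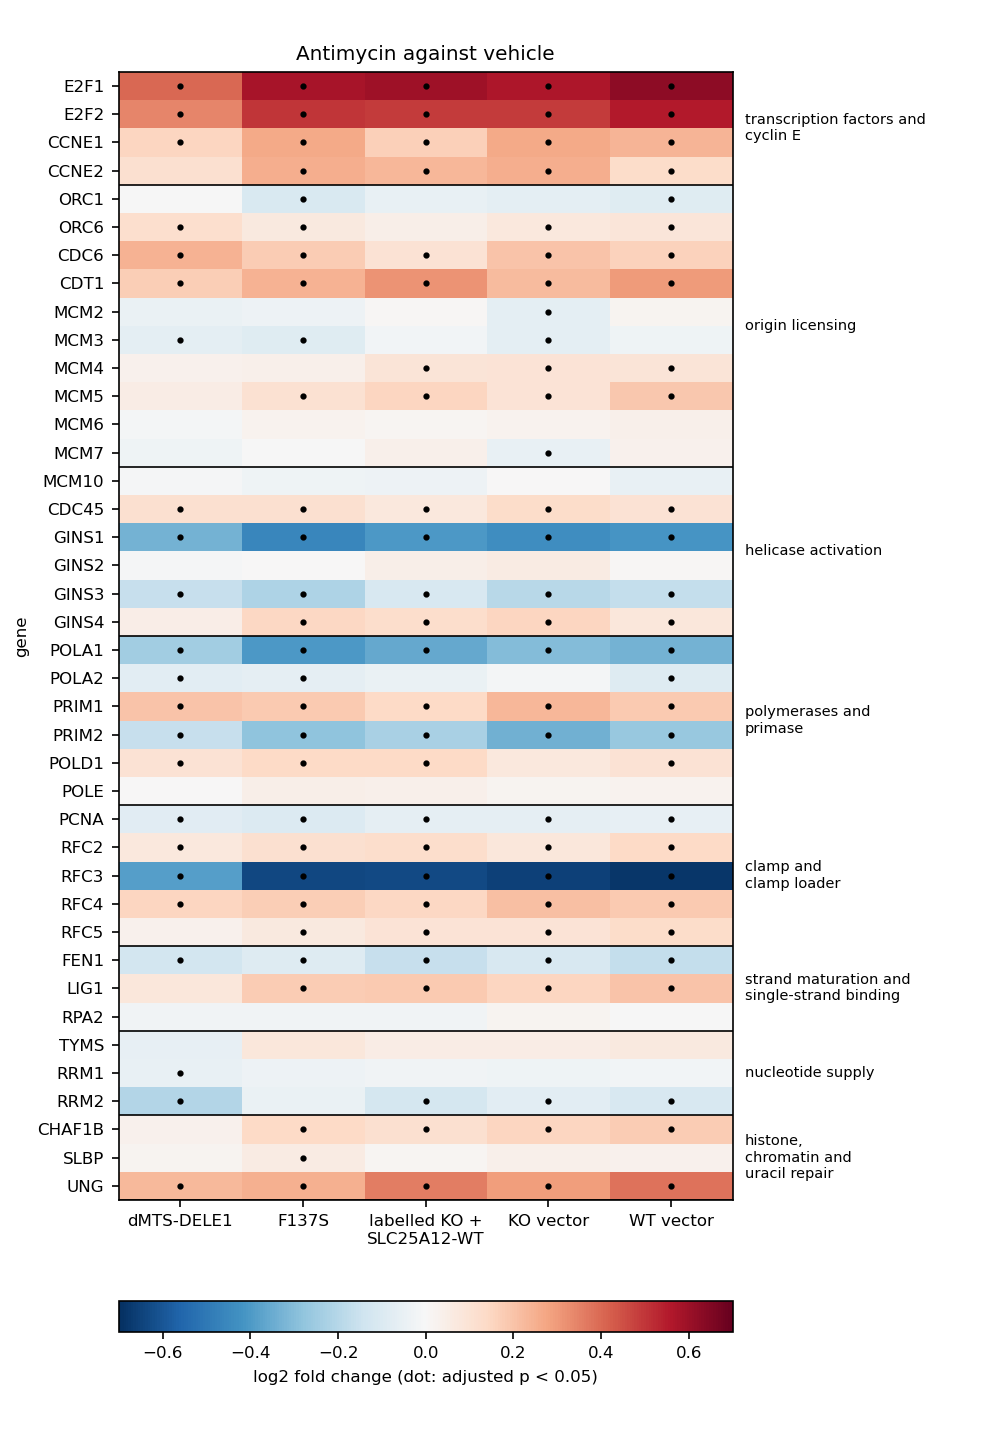
Colour gives the log2 fold change of antimycin against vehicle for each of the 40 genes (rows, grouped by role) in the 5 lines (columns), and a dot marks an adjusted p under 0.05. The red rows of E2F1 and E2F2 and the blue rows of RFC3, GINS1 and POLA1 run across all 5 columns, with the palest colours in dMTS-DELE1 cells.

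The promoters of the 3 members that rose most and the 3 that fell most on average over the lines are shown because they let the sequence at both ends of the response be read side by side. They were taken from RefSeq on GRCh38.p14, each from 250 bases before to 50 bases after a start site, 5′ to 3′ on the strand of the gene. Capitals mark matches on either strand to CCAAT or to the E2F motifs TTTCCCGC, TTTCGCGC, TTTGCCGC and TTTGGCGC, and neighbouring matches may run together. The windows of the genes that rose lie at chr20:33686336-33686635, minus strand for E2F1, chr1:23531184-23531483, minus strand for E2F2 and chr12:109097347-109097646, plus strand for UNG, whose table entry holds 2 windows, of which the first is printed. The windows of the genes that fell lie at chr13:33817899-33818198, plus strand for RFC3, chr20:25407423-25407722, plus strand for GINS1 and chrX:24693668-24693967, plus strand for POLA1.
E2F1: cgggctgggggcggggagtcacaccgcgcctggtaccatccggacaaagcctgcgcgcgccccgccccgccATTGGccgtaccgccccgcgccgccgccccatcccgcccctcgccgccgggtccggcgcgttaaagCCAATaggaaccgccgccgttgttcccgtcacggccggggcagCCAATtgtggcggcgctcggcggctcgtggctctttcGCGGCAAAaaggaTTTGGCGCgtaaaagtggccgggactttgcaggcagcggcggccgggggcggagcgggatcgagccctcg
E2F2: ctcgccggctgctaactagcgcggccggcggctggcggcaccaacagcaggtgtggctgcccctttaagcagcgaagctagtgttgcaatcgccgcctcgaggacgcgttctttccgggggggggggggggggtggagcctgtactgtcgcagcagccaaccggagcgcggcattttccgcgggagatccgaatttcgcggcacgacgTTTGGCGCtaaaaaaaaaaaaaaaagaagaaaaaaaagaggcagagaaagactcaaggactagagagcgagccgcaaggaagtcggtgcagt
UNG: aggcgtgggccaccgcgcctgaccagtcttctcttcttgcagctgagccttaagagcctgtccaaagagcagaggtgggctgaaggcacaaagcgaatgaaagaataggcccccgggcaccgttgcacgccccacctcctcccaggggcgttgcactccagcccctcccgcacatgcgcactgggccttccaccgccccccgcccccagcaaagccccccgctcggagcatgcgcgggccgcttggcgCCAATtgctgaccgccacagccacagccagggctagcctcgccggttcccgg
RFC3: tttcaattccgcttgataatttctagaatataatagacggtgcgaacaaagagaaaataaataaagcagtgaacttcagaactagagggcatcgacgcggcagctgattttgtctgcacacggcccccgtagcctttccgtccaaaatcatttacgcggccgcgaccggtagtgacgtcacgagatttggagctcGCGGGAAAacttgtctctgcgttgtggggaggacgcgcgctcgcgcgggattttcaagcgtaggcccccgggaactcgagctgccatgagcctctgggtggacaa
GINS1: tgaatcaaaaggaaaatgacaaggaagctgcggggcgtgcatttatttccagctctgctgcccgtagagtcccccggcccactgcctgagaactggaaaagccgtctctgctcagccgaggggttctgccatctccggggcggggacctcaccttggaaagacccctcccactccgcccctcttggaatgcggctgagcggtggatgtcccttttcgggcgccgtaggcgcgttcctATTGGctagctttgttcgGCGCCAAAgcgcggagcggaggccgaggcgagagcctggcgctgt
POLA1: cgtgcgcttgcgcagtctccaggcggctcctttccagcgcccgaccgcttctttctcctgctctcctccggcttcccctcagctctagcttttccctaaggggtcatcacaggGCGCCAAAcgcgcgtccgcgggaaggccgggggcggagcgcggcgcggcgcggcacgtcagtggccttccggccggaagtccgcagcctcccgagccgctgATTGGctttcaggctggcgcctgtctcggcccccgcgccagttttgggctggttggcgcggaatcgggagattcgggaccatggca

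The E2F1 window held the motif 2 times, 33 and 20 bases before the start, as counted to the first base of the match, and CCAAT 3 times. E2F2 held it once, 42 bases before the start. RFC3 held it 55 bases before and POLA1 farther before the start, and in GINS1 the match began 6 bases after it. The printed UNG window had CCAAT and no E2F motif, and the other UNG window held an E2F motif. Of the 40 members 35 were matched in the promoter table, and the entries of RPA2, MCM4, GINS4, MCM5 and CCNE2 were not. An E2F motif stood in 19 of the 35 (54.3%), against 3.31% of all 35116 windows and 4.1% of the 22198 windows of protein-coding genes, where a match in any window of a gene counted for the 7 members with more than 1. CCAAT stood in 19 of the 35 (54.3%), against 34.6% of all windows. Among members with a window, the E2F motif was found in 6 of 15 that rose in 4 lines or more, 5 of 8 that fell in 4 lines or more and 8 of the other 12.

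Of the control genes, E2F1, E2F2 and CCNE1 rose in every line and CCNE2 in 4. E2F1, the transcription factor that switches on S-phase genes, had 112, 109, 101 and 109 CPM under antimycin, against 85.8, 85.2, 74.3 and 81.2 CPM in vehicle, in dMTS-DELE1 cells. F137S cells held 123, 117, 131 and 127 CPM under antimycin, against 80.8, 86.7, 82.2 and 83.9 CPM in vehicle. The labelled KO plus SLC25A12-WT libraries held E2F1 at 142, 133, 129.9 and 131 CPM under antimycin, against 87.2, 91.9, 91.5 and 84.0 CPM in vehicle. All antimycin libraries of these lines lay above all vehicle libraries. KO-vector cells had 125, 128, 127 and 126 CPM under antimycin, against 82.5, 85.3, 89.6 and 84.3 CPM in vehicle, and WT-vector cells had 139.7, 138, 136.8 and 130 CPM under antimycin, against 87.7, 90.3, 86.5 and 88.2 CPM in vehicle. The groups did not overlap there either, and the vehicle libraries of the 5 lines lay close together. The log2 fold change of E2F1 was 0.40 ± 0.04, adjusted p = 5.2e-14, in dMTS-DELE1 cells and 0.58 ± 0.04 in F137S cells, 0.59 ± 0.04 in labelled KO plus SLC25A12-WT, 0.56 ± 0.04 in KO-vector and 0.63 ± 0.04, adjusted p = 1.1e-22, in WT-vector cells by edgeR's quasi-likelihood test.

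E2F2, its close relative, had 85.2, 84.0, 84.2 and 83.5 CPM under antimycin, against 66.2, 67.7, 65.7 and 65.9 CPM in vehicle, in dMTS-DELE1 cells. F137S cells had 83.8, 78.9, 89.3 and 85.2 CPM under antimycin, against 61.5, 57.5, 58.2 and 60.9 CPM in vehicle. KO-vector cells had 84.9, 78.6, 84.0 and 85.8 CPM under antimycin, against 59.2, 58.3, 62.2 and 57.8 CPM in vehicle. The E2F2 level was higher in these 3 lines than in the other 2, under either treatment. The labelled KO plus SLC25A12-WT libraries held E2F2 at 64.2, 58.2, 62.3 and 59.7 CPM under antimycin, against 43.8, 43.7, 42.2 and 44.3 CPM in vehicle. WT-vector cells held 61.9, 60.6, 60.2 and 61.4 CPM under antimycin, against 41.3, 43.4, 37.8 and 43.8 CPM in vehicle. No antimycin library of a line overlapped its vehicle libraries. The E2F2 log2 fold changes under antimycin were 0.34 ± 0.04, adjusted p = 1.2e-12, in dMTS-DELE1 cells, 0.50 in F137S, 0.49 in labelled KO plus SLC25A12-WT, 0.49 in KO-vector and 0.55 ± 0.04, adjusted p = 1.1e-21, in WT-vector cells (edgeR quasi-likelihood).

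CCNE1, which encodes cyclin E1, had 35.8, 35.2, 33.9 and 35.9 CPM under antimycin, against 31.8, 31.0, 31.8 and 32.2 CPM in vehicle, in dMTS-DELE1 cells. WT-vector cells had 56.7, 57.9, 56.8 and 56.6 CPM under antimycin, against 52.7, 47.4, 44.6 and 48.7 CPM in vehicle. The groups did not overlap in either line, and dMTS-DELE1 cells held the lower level. F137S cells had 44.4, 43.4, 44.4 and 45.5 CPM under antimycin, against 38.8, 36.9, 36.3 and 35.6 CPM in vehicle. KO-vector cells had 43.7, 44.1, 46.5 and 48.4 CPM under antimycin, against 37.1, 35.9, 39.4 and 39.5 CPM in vehicle. CCNE1 rose by log2 fold changes of 0.15, 0.27, 0.17, 0.27 and 0.24 in dMTS-DELE1, F137S, labelled KO plus SLC25A12-WT, KO-vector and WT-vector cells, and by edgeR the highest of the 5 adjusted p-values was 0.0036.

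CCNE2, which encodes cyclin E2, had 30.5, 32.7, 32.9 and 33.2 CPM under antimycin, against 30.1, 30.8, 30.1 and 28.4 CPM in vehicle, in dMTS-DELE1 cells, where the groups overlapped and the test was not passed (0.11 ± 0.05, adjusted p = 0.055, by edgeR). F137S cells had 39.6, 37.7, 38.4 and 38.8 CPM under antimycin, against 31.1, 32.3, 33.6 and 32.3 CPM in vehicle, without overlap. KO-vector cells had 36.8, 38.3, 39.3 and 38.0 CPM under antimycin, against 31.5, 31.0, 30.8 and 34.6 CPM in vehicle, again without overlap. WT-vector cells had 24.5, 23.0, 24.2 and 22.6 CPM under antimycin, against 22.2, 22.9, 20.2 and 21.0 CPM in vehicle, where the ranges overlapped. CCNE2 rose in F137S (0.26 ± 0.05), labelled KO plus SLC25A12-WT (0.23 ± 0.05), KO-vector (0.25 ± 0.05) and, by less, WT-vector cells (0.13 ± 0.05, adjusted p = 0.028, edgeR). In WT-vector cells the call was lost with those groups fitted alone (adjusted p = 0.053) and without vehicle replicate 3 (adjusted p = 0.078) or 4 (adjusted p = 0.073). In GENCODE 29, 47.5% of the exon bases of CCNE2 overlap INTS8 on the opposite strand, and whether the counting used strand is not given, so the CCNE2 counts may include reads of INTS8. The same holds for TYMS, of which 64.6% overlaps ENOSF1 or TYMSOS, and to under 10% for FEN1, PRIM1, MCM7, RFC4, MCM2 and GINS2.

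**Figure D2:**
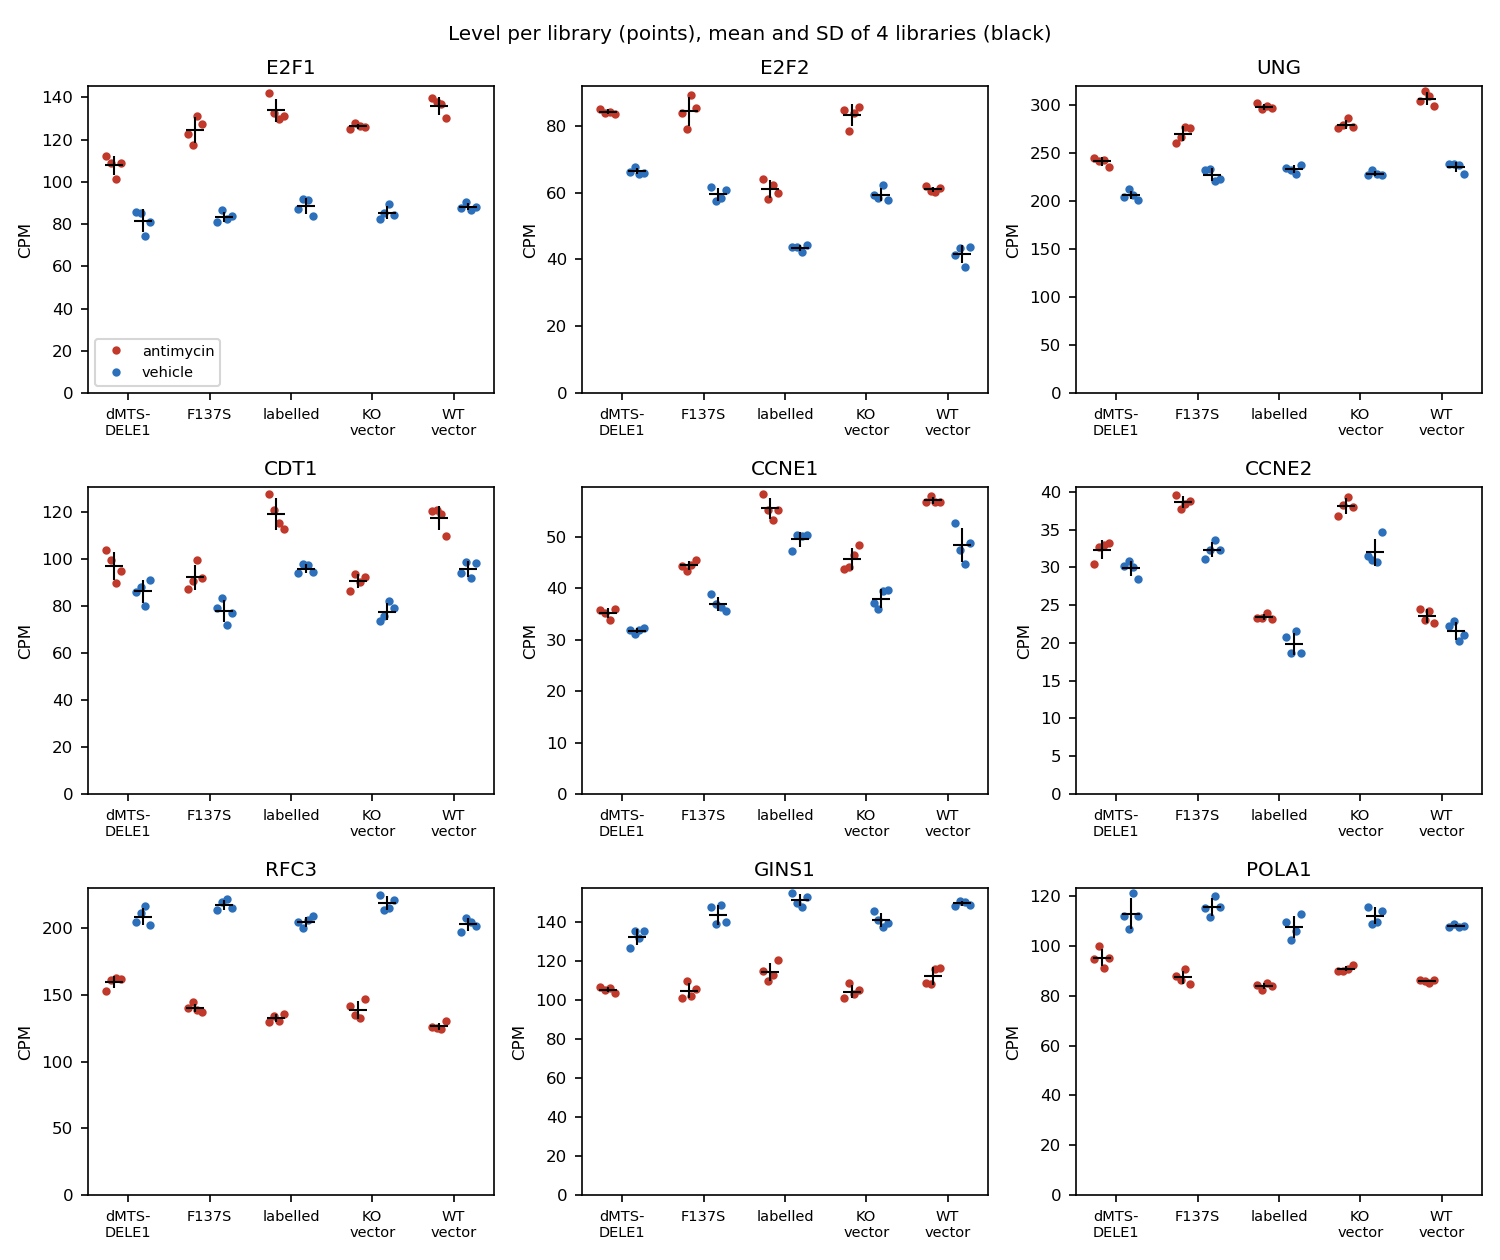
Each point is the CPM of a gene in a single library, red under antimycin and blue in vehicle, by line, with the mean and SD of 4 libraries in black. E2F1, E2F2 and UNG sit higher under antimycin and RFC3, GINS1 and POLA1 lower in every line without overlap, while CCNE1, CCNE2, CDT1 and E2F2 also differ between lines in vehicle.

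Among the licensing genes, CDT1 and CDC6 rose in every line, while the 6 subunits of the helicase moved by log2 fold changes of 0.19 at most. CDT1, the loading factor that is destroyed once S phase begins, had 104, 99.3, 89.8 and 94.9 CPM under antimycin, against 85.9, 88.0, 79.7 and 91.2 CPM in vehicle, in dMTS-DELE1 cells, where the groups overlapped. WT-vector cells had 120.2, 121, 119 and 109.8 CPM under antimycin, against 93.9, 98.7, 91.9 and 98.1 CPM in vehicle, without overlap. CDT1 rose by 0.17 ± 0.05 in dMTS-DELE1, 0.25 ± 0.05 in F137S, 0.31 ± 0.05 in labelled KO plus SLC25A12-WT, 0.22 ± 0.05 in KO-vector and 0.30 ± 0.05, adjusted p = 2.8e-06, in WT-vector cells (edgeR). CDC6, the ATPase that works with it, had 167, 163, 164 and 163 CPM under antimycin, against 139.8, 134, 141 and 139.6 CPM in vehicle, in dMTS-DELE1 cells and 161, 163, 165 and 172 CPM under antimycin, against 149, 151, 146 and 145 CPM in vehicle, in WT-vector cells. The groups did not overlap in either line, and the CDC6 log2 fold change ran from 0.10 in labelled KO plus SLC25A12-WT to 0.25 ± 0.02, adjusted p = 2.1e-13, in dMTS-DELE1 cells (edgeR).

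MCM5, a subunit of the helicase, had 239.9, 229, 234 and 232 CPM under antimycin, against 200.1, 208, 211 and 204 CPM in vehicle, in WT-vector cells, without overlap, and rose by 0.19 ± 0.02, adjusted p = 4.5e-10 (edgeR). Its log2 fold changes were 0.10, 0.15 and 0.09 in F137S, labelled KO plus SLC25A12-WT and KO-vector cells, and in dMTS-DELE1 cells it was not called (0.05 ± 0.02, adjusted p = 0.097, edgeR). MCM4 rose by 0.09 to 0.10 in 3 lines, and ORC6, a subunit of the origin recognition complex, by 0.07 to 0.12 in 4 lines. MCM3 fell in dMTS-DELE1 (-0.07), F137S (-0.09) and KO-vector cells (-0.07), ORC1 fell in F137S (-0.11) and WT-vector cells (-0.08), and MCM2 (-0.07) and MCM7 (-0.05) fell in KO-vector cells. MCM6 stayed between -0.01 and 0.03 in the 5 lines and passed in none.

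The GINS complex, 4 subunits that ride with the helicase, did not move as a unit. GINS1 had 106, 105, 106 and 104 CPM under antimycin, against 127, 135, 132 and 135 CPM in vehicle, in dMTS-DELE1 cells. F137S cells had 101, 109.6, 102 and 105 CPM under antimycin, against 147, 139, 149 and 139.6 CPM in vehicle. WT-vector cells had 108, 108, 116 and 116 CPM under antimycin, against 148, 151, 150 and 149 CPM in vehicle. In these lines every antimycin library held less GINS1 than every vehicle library, and so it was in the other 2. GINS1 fell, with log2 fold changes of -0.33 ± 0.03 in dMTS-DELE1, -0.46 ± 0.03 in F137S, -0.40 ± 0.03 in labelled KO plus SLC25A12-WT, -0.43 ± 0.03 in KO-vector and -0.41 ± 0.03, adjusted p = 1.6e-21, in WT-vector cells (edgeR). GINS3 fell as well, with 59.6, 54.2, 59.4 and 60.5 CPM under antimycin, against 69.3, 63.6, 62.3 and 67.1 CPM in vehicle, in WT-vector cells, without overlap, and log2 fold changes of -0.11 to -0.21 over the lines. GINS4 went the other way in 4 lines, with 99.2, 90.9, 94.7 and 99.8 CPM under antimycin, against 89.8, 89.1, 93.1 and 91.4 CPM in vehicle, in WT-vector cells, where the ranges overlapped (0.08 ± 0.03, adjusted p = 0.027, edgeR, and adjusted p = 0.074 without vehicle replicate 2). GINS4 rose by 0.15, 0.12 and 0.15 in F137S, labelled KO plus SLC25A12-WT and KO-vector cells, and was not called in dMTS-DELE1 cells (0.04 ± 0.03, adjusted p = 0.31, edgeR). GINS2 lay between -0.01 and 0.06 in the 5 lines and was never called. CDC45, which joins the helicase with GINS, rose by 0.07 to 0.13 in every line, and MCM10, needed for the step, was called in no line.

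Among the enzymes that start each strand, POLA1 fell in 5 lines and POLA2 in 3, while the subunits of the primase moved apart. POLA1, the catalytic subunit of polymerase alpha, had 94.9, 99.9, 91.2 and 95.2 CPM under antimycin, against 112, 107, 121 and 112 CPM in vehicle, in dMTS-DELE1 cells. F137S cells had 88.0, 86.1, 90.7 and 84.8 CPM under antimycin, against 115, 111, 120.1 and 116 CPM in vehicle. WT-vector cells had 86.2, 85.8, 85.2 and 86.2 CPM under antimycin, against 108, 109, 108 and 108 CPM in vehicle. There was no overlap in any line, and the WT-vector libraries of a group lay close together. POLA1 fell, with log2 fold changes of -0.25 ± 0.03 in dMTS-DELE1, -0.40 ± 0.03 in F137S, -0.36 ± 0.03 in labelled KO plus SLC25A12-WT, -0.30 ± 0.03 in KO-vector and -0.33 ± 0.03, adjusted p = 1.1e-15, in WT-vector cells (edgeR). Its partner POLA2 fell less, in dMTS-DELE1 (-0.08), F137S (-0.06) and WT-vector cells (-0.09).

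PRIM2, the large subunit of the primase, had 41.4, 41.2, 39.2 and 40.0 CPM under antimycin, against 46.1, 43.4, 48.1 and 43.0 CPM in vehicle, in dMTS-DELE1 cells. KO-vector cells had 31.2, 34.5, 36.6 and 36.5 CPM under antimycin, against 45.5, 41.3, 44.2 and 44.6 CPM in vehicle. WT-vector cells had 30.6, 31.4, 29.5 and 32.1 CPM under antimycin, against 37.2, 42.6, 34.7 and 33.8 CPM in vehicle. No line overlapped, and PRIM2 fell, with log2 fold changes of -0.16 ± 0.05 in dMTS-DELE1, -0.34 ± 0.05 in KO-vector and -0.26 ± 0.05, adjusted p = 1.1e-05, in WT-vector cells (edgeR). A pseudogene copy of PRIM2 exists, so its counts are less certain. PRIM1, the catalytic subunit of the same enzyme, rose instead, with 75.6, 75.1, 76.3 and 73.6 CPM under antimycin, against 64.2, 61.6, 71.3 and 65.2 CPM in vehicle, in dMTS-DELE1 cells and 68.6, 67.0, 69.2 and 65.7 CPM under antimycin, against 60.1, 59.8, 60.2 and 58.0 CPM in vehicle, in WT-vector cells. The groups did not overlap, and PRIM1 rose by 0.14 in labelled KO plus SLC25A12-WT to 0.23 in KO-vector cells, with 0.18 ± 0.04, adjusted p = 1.8e-05, in WT-vector cells (edgeR). POLD1, the catalytic subunit of polymerase delta, rose by 0.10 to 0.14 in 4 lines and was not called in KO-vector cells (0.07 ± 0.04, adjusted p = 0.12, edgeR). POLE, that of polymerase epsilon, was called in no line.

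Among the small subunits of the clamp loader, RFC3 stood alone in falling. RFC3 had 153, 161, 163 and 162 CPM under antimycin, against 205, 211, 217 and 202 CPM in vehicle, in dMTS-DELE1 cells. F137S cells had 140.1, 144, 139 and 137.2 CPM under antimycin, against 214, 219.6, 222 and 215 CPM in vehicle. The libraries labelled KO plus SLC25A12-WT had 129.9, 134, 130.5 and 136 CPM under antimycin, against 205, 200, 206 and 209 CPM in vehicle. Each antimycin library lay far below each vehicle library. KO-vector cells had 141, 135, 132 and 147 CPM under antimycin, against 225, 214, 215 and 221 CPM in vehicle, and WT-vector cells had 126, 125, 124 and 130.2 CPM under antimycin, against 197, 208, 205 and 201 CPM in vehicle. RFC3 had the lowest log2 fold change of the 40 genes in every line, -0.39 ± 0.03, adjusted p = 9.5e-22, in dMTS-DELE1 cells, -0.64 ± 0.03 in F137S, -0.63 ± 0.03 in labelled KO plus SLC25A12-WT, -0.66 ± 0.03 in KO-vector and -0.68 ± 0.03, adjusted p = 1.9e-36, in WT-vector cells (edgeR). RFC4 rose, with 135, 134, 136 and 135 CPM under antimycin, against 119.6, 122, 123 and 121 CPM in vehicle, in dMTS-DELE1 cells and 120.3, 111, 111 and 116 CPM under antimycin, against 103, 98.7, 102 and 99.4 CPM in vehicle, in WT-vector cells. Its groups did not overlap in any line, and its log2 fold change was 0.14 to 0.21. RFC2 rose in every line, by 0.07 in dMTS-DELE1 cells to 0.14 in WT-vector cells, where it had 143, 137.1, 141 and 137.2 CPM under antimycin, against 132, 124, 124 and 128 CPM in vehicle, without overlap. RFC5 rose by 0.07 to 0.13 in 4 lines and was not called in dMTS-DELE1 cells (0.03 ± 0.02, adjusted p = 0.31, edgeR). PCNA, the clamp itself, fell by a log2 fold change of 0.06 to 0.10 in the 5 lines.

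FEN1, the flap nuclease that trims Okazaki fragments, had 181, 187, 192 and 188 CPM under antimycin, against 197, 200.5, 203 and 215 CPM in vehicle, in dMTS-DELE1 cells and 204, 209, 203 and 204 CPM under antimycin, against 228, 229.5, 235 and 228 CPM in vehicle, in WT-vector cells. The FEN1 groups did not overlap in any line, and it fell, with log2 fold changes of -0.13 ± 0.02 in dMTS-DELE1, -0.09 ± 0.02 in F137S and -0.17 ± 0.02, adjusted p = 1.8e-09, in WT-vector cells (edgeR). LIG1, the ligase that seals the same fragments, rose, with 139.9, 129, 139 and 141 CPM under antimycin, against 120.3, 117, 119 and 128 CPM in vehicle, in F137S cells (0.18 ± 0.03, adjusted p = 3.1e-06, edgeR), and by 0.20 in WT-vector cells, without overlap in either. In dMTS-DELE1 cells LIG1 had 123, 113, 118 and 116 CPM under antimycin, against 118, 114, 102 and 111 CPM in vehicle, where the groups overlapped and the test was not passed (0.08 ± 0.03, adjusted p = 0.059, edgeR). RPA2, which coats single strands, lay between -0.03 and 0.02 over the lines and was called in none.

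Nucleotide supply moved little, apart from RRM2 in dMTS-DELE1 cells. RRM2, the small subunit of ribonucleotide reductase, had 245, 241, 261 and 258 CPM under antimycin, against 291, 286, 296 and 287 CPM in vehicle, in dMTS-DELE1 cells. F137S cells had 326, 330, 328 and 328 CPM under antimycin, against 336, 338, 345 and 335 CPM in vehicle. WT-vector cells had 369, 354, 364 and 368 CPM under antimycin, against 392.2, 396, 398 and 385 CPM in vehicle. No groups overlapped, though the gap was narrow in F137S cells, where the test was not passed (-0.04 ± 0.02, adjusted p = 0.057, edgeR). RRM2 fell, with log2 fold changes of -0.21 ± 0.02, adjusted p = 7.4e-14, in dMTS-DELE1 and -0.11 ± 0.02, adjusted p = 2.5e-06, in WT-vector cells (edgeR). RRM1, the large subunit, passed only in dMTS-DELE1 cells, where it had 336, 353, 350 and 345 CPM under antimycin, against 367, 351, 368 and 351 CPM in vehicle, with overlap (-0.05 ± 0.02, adjusted p = 0.02, edgeR, and adjusted p = 0.14 without antimycin replicate 1 or 0.11 without vehicle replicate 3). TYMS, thymidylate synthase, was called in no line and lay between -0.06 and 0.08.

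UNG, which removes uracil from DNA, rose more than any member outside the E2F pair in WT-vector cells. UNG had 245, 242, 243 and 235 CPM under antimycin, against 204, 212, 206 and 202 CPM in vehicle, in dMTS-DELE1 cells. F137S cells had 261, 267, 278 and 276 CPM under antimycin, against 233, 234, 221 and 222 CPM in vehicle. WT-vector cells had 304, 314, 309.5 and 299 CPM under antimycin, against 238, 238, 238 and 228 CPM in vehicle. Groups did not overlap in any line, and UNG rose by 0.23 ± 0.02 in dMTS-DELE1, 0.25 ± 0.02 in F137S, 0.36 ± 0.02 in labelled KO plus SLC25A12-WT, 0.29 ± 0.02 in KO-vector and 0.38 ± 0.02, adjusted p = 2.6e-26, in WT-vector cells (edgeR). CHAF1B, a subunit of the chromatin assembly factor CAF-1, had 113, 114, 109.5 and 117 CPM under antimycin, against 101, 103, 99.5 and 96.8 CPM in vehicle, in WT-vector cells, without overlap (0.18 ± 0.03, adjusted p = 5.2e-08, edgeR). It rose in the 4 lines other than dMTS-DELE1 (0.03 ± 0.03, adjusted p = 0.4, edgeR). SLBP, the histone mRNA binding protein, was called in F137S cells alone, at 0.06 ± 0.02, adjusted p = 0.039 (edgeR), with 186, 190.2, 177 and 189.9 CPM under antimycin, against 179.7, 175, 182 and 178 CPM in vehicle, in overlapping ranges, and without antimycin replicate 2 or 4 or vehicle replicate 2 the adjusted p was 0.053 to 0.065.

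Further lists of the cell cycle were read beside the 40 genes. Of 27 genes of G2 and mitosis, 20 fell in dMTS-DELE1, 24 in F137S, 24 in labelled KO plus SLC25A12-WT, 23 in KO-vector and 24 in WT-vector cells, with 1 up in labelled KO plus SLC25A12-WT. Of all tested genes 17.3%, 24.9%, 26.4%, 24.7% and 26.4% fell in that order of lines. The list's median log2 fold change was -0.14, -0.28, -0.34, -0.27 and -0.33 in the same order. In WT-vector cells AURKA (-0.75), the kinesin KIF23 (-0.66), PLK1 (-0.60) and CENPA (-0.58) led them, and in dMTS-DELE1 cells KIF23 (-0.39), AURKA (-0.36), CCNB1 (-0.34) and KIF20A (-0.31). The mean log2 CPM of the list was 6.90 ± 0.00789 under antimycin, against 7.05 ± 0.0024 in vehicle in dMTS-DELE1 cells, and 6.78 ± 0.0163 under antimycin, against 7.13 ± 0.0147 in vehicle in WT-vector cells (SD, n = 4). For the 40 replication genes the same mean was 7.06 ± 0.00341 under antimycin, against 7.05 ± 0.00712 in vehicle in dMTS-DELE1 cells, and 7.16 ± 0.00942 under antimycin, against 7.12 ± 0.0127 in vehicle in WT-vector cells. The part of this shift in the values of the 40 genes was not tested.

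Of 29 other G1/S control genes, 5 rose and 10 fell in dMTS-DELE1 cells, where 17.6% of all tested genes rose and 17.3% fell, and 10 rose and 12 fell in WT-vector cells, where 25.5% rose and 26.4% fell. CDKN1A, which encodes the inhibitor p21, rose in WT-vector cells (0.65 ± 0.07, adjusted p = 3.6e-13, edgeR), as did CDKN2D (0.52), while CCNA2, the cyclin of S phase and G2 (-0.56), and CDK6 (-0.42) fell. CDKN1B, of the same list, averaged 35.5 ± 2.17 CPM under antimycin, against 47.4 ± 1.31 CPM in vehicle, in WT-vector cells (SD, n = 4). It fell in F137S (-0.49), labelled KO plus SLC25A12-WT (-0.46) and KO-vector cells (-0.45). In dMTS-DELE1 cells E2F3 (-0.38), CCNA2 (-0.26) and E2F5 (-0.22) fell and CCND2 (0.23) rose, and CDKN1A was not called (0.13 ± 0.06, adjusted p = 0.097, edgeR). Of 32 further replication factors tested, 9 rose and 9 fell in dMTS-DELE1 cells (56.2% called, beside 34.9% of all genes) and 9 rose and 14 fell in WT-vector cells (71.9% called, beside 51.9%), led there by ORC5 (-0.65), DBF4 (-0.40), MTBP (-0.37) and CHTF18 (0.35). The calls of 23 other E2F target and S-phase genes were near the share of all tested genes in dMTS-DELE1 cells (34.8% beside 34.9%) and were 65.2% beside 51.9% in WT-vector cells. Of these 23, 5 rose and 3 fell in dMTS-DELE1 cells and 9 rose and 6 fell in WT-vector cells, among them TCF19 (0.34), PAQR4 (0.27), BLM (-0.24) and TK1 (0.24).

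**Figure D3:**
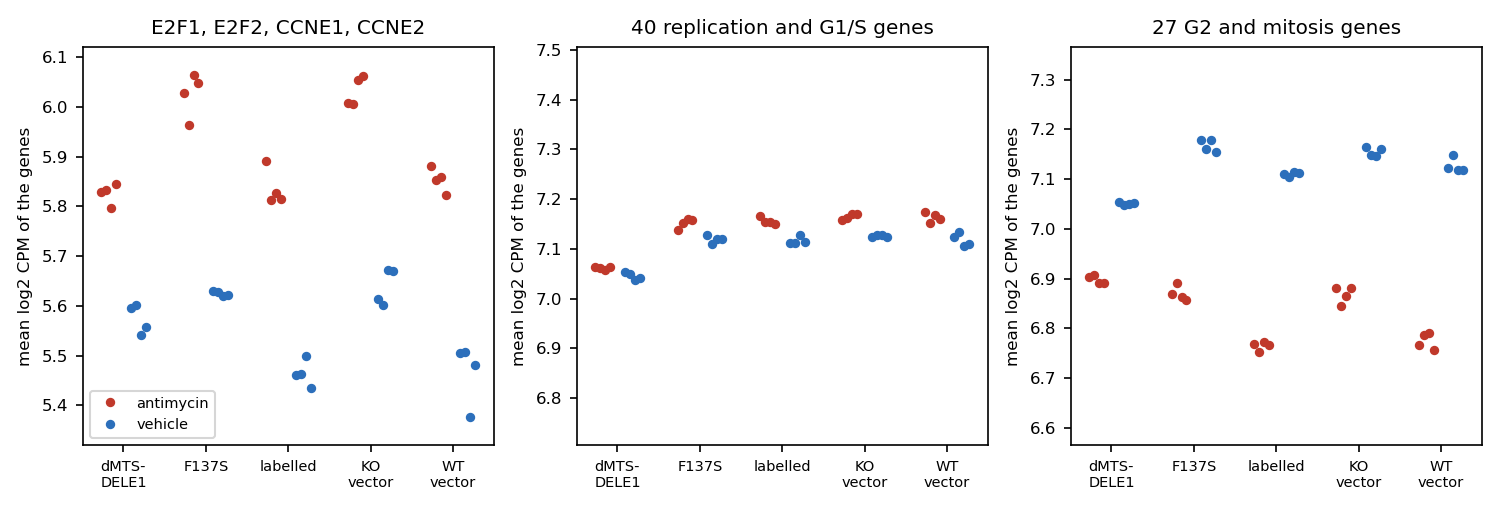
Each point is a library's mean log2 CPM over E2F1, E2F2, CCNE1 and CCNE2 (left), over the 40 replication and G1/S genes (middle) or over 27 G2 and mitosis genes (right), red under antimycin and blue in vehicle, by line, on y axes of equal span that do not start at 0. The control genes lie higher under antimycin and the mitosis genes lower, while the 40 genes as a whole differ by under 0.05.

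The antimycin responses of the 40 genes were then compared between lines, as differences of 2 log2 fold changes. For KO-vector minus WT-vector cells 0 of 40 members passed edgeR's quasi-likelihood test, where 1.57% of all tested genes passed (0.836% higher and 0.729% lower). In that comparison 4 members had an unadjusted p under 0.05, beside 11.6% of all tested genes, and DESeq2 called 3. The differences ran from -0.09 for MCM5 to 0.13 for CCNE2, and the 95% intervals of all 40 lay between -0.22 and 0.26. For F137S minus KO-vector cells 0 of 40 and 0% of all genes passed, with intervals between -0.18 and 0.19. There 2 members had an unadjusted p under 0.05, beside 4.25% of all tested genes, and DESeq2 called 0. The libraries labelled KO plus SLC25A12-WT gave 0 of 40 against KO-vector cells (1.65% of all genes, 0.705% higher and 0.944% lower). Unadjusted, 4 members and 11.7% of all genes passed there, and DESeq2 called 1 member. Against WT-vector cells they gave 0 of 40 (0% of all genes), with 0 members and 4.52% of all genes unadjusted and 0 members by DESeq2.

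The responses of dMTS-DELE1 and F137S cells differed past the threshold for 6 members, 3 in each direction, where 11.9% of all tested genes did (8.24% higher and 3.7% lower). RFC3 fell less in dMTS-DELE1 cells (-0.39) than in F137S cells (-0.64), a difference of 0.25 ± 0.04, adjusted p = 3.8e-07 (edgeR). POLA1 (0.16 ± 0.04, adjusted p = 0.0076) and GINS1 (0.13 ± 0.04, adjusted p = 0.027) also fell less. E2F1 (-0.18 ± 0.05, adjusted p = 0.012) and E2F2 (-0.16 ± 0.05, adjusted p = 0.03) rose less. RRM2 went the other way and fell more in dMTS-DELE1 cells (-0.16 ± 0.03, adjusted p = 1.9e-05). Fitting the compared groups alone gave adjusted p-values of 0.066 for POLA1 and 0.11 for GINS1, and no filter on low counts gave 0.061 for E2F2. The call of E2F2 was lost without F137S antimycin replicate 3 or dMTS-DELE1 vehicle replicate 2 (edgeR adjusted p = 0.057 and 0.064), that of POLA1 without F137S antimycin replicate 4, F137S vehicle replicate 3 or dMTS-DELE1 antimycin replicate 2 (0.064 to 0.083) and that of GINS1 in 9 of 16 fits without a library (0.066 to 0.18). Of the 29 members called in F137S cells, 24 had a smaller absolute log2 fold change in dMTS-DELE1 cells. The median absolute change was 0.119 in dMTS-DELE1 and 0.175 in F137S cells. The set was chosen by its F137S values, which favours a smaller value in the other line. The same share over all genes called in F137S cells was not computed, so these values do not set the members apart. Of the 27 G2 and mitosis genes, 17 passed the threshold with a higher log2 fold change in dMTS-DELE1 cells, where their response was less negative. With a lower log2 fold change 0 passed it, and the rest did not pass.

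**Figure D4:**
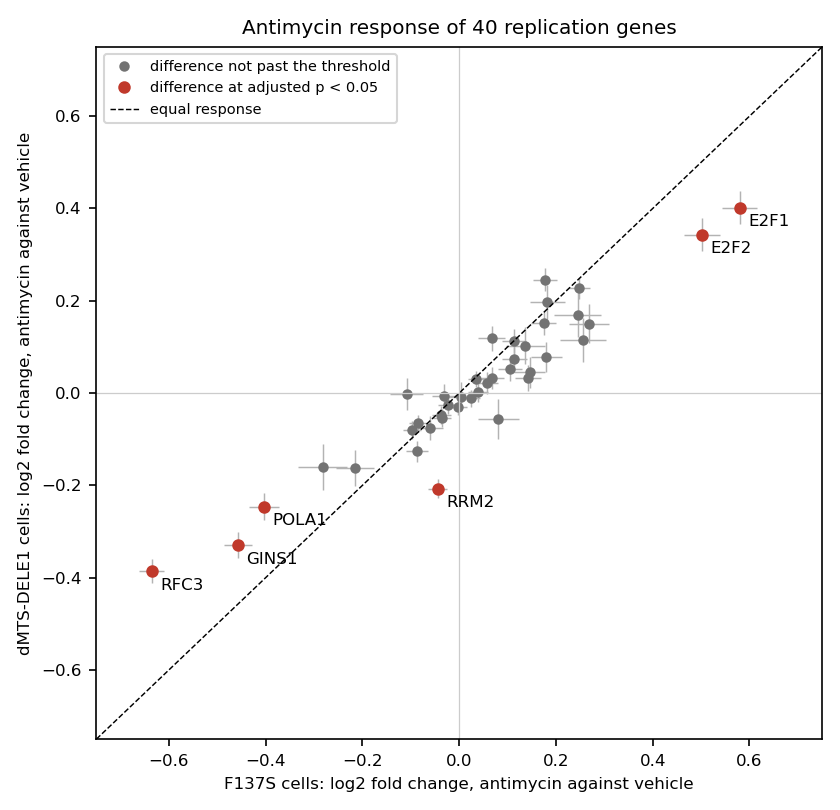
Each point is a member, with its antimycin log2 fold change in dMTS-DELE1 cells (y) against that in F137S cells (x), bars of 1 standard error and a dashed line of equal response. Red points, labelled, are the 6 genes whose responses differed; RFC3, GINS1, POLA1, E2F1 and E2F2 lie nearer to 0 on the y axis and RRM2 further from it.

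The lines also differed before the drug. In vehicle, 14 of the 40 genes were higher and 14 lower in KO-vector than in WT-vector cells, where 48.3% of all tested genes passed. The control genes did not move together here: CCNE2 had 31.5, 31.0, 30.8 and 34.6 CPM in KO-vector cells, against 22.2, 22.9, 20.2 and 21.0 CPM in WT-vector cells. E2F2 had 59.2, 58.3, 62.2 and 57.8 CPM in KO-vector cells, against 41.3, 43.4, 37.8 and 43.8 CPM in WT-vector cells. CCNE1 had 37.1, 35.9, 39.4 and 39.5 CPM in KO-vector cells, against 52.7, 47.4, 44.6 and 48.7 CPM in WT-vector cells. CCNE2 and E2F2 were thus higher and CCNE1 lower in the knockout, each without overlap, with log2 fold changes of 0.57 ± 0.05, adjusted p = 6.9e-17, for CCNE2, 0.51 ± 0.04, adjusted p = 5.7e-20, for E2F2 and -0.35 ± 0.04, adjusted p = 2.6e-11, for CCNE1 (edgeR). E2F1 was not called (-0.05 ± 0.04, adjusted p = 0.31, edgeR).

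By role, 8 of the 10 licensing genes and 4 of the 6 of helicase activation were lower in KO-vector cells, while 4 of the 5 of the clamp and its loader and 3 of the 6 of polymerases and primase were higher and none of these lower. Of all tested genes 25.6% were lower and 22.7% higher, and the role groups are small. CDT1 had 73.4, 75.7, 81.8 and 79.0 CPM in KO-vector cells, against 93.9, 98.7, 91.9 and 98.1 CPM in WT-vector cells, a log2 fold change of -0.30 ± 0.05. GINS2 had 90.9, 92.1, 86.2 and 87.4 CPM in KO-vector cells, against 106, 109, 110.5 and 108 CPM in WT-vector cells (-0.28 ± 0.03). RFC4 had 126, 124, 126 and 118 CPM in KO-vector cells, against 103, 98.7, 102 and 99.4 CPM in WT-vector cells (0.29 ± 0.03). None of the 3 overlapped between the lines. Within the helicase, MCM4 (-0.20), MCM6 (-0.23), MCM3 (-0.11), MCM5 (-0.09) and MCM7 (-0.08) were lower and MCM2 (0.14) was higher. PRIM2 (0.24), RFC5 (0.21), RPA2 (0.18) and POLE (0.17) were higher, and RRM2 (-0.13) was lower. The summed level of the 8 genes known from HEK293 cells was 758 to 766 CPM in KO-vector cells, against 906 to 912 CPM in WT-vector cells, but its members went both ways. NEFM averaged 73.8 ± 2.45 CPM in KO-vector cells, against 225 ± 7.78 CPM in WT-vector cells, and VIM 354 ± 3.06 CPM in KO-vector cells, against 404 ± 9.06 CPM in WT-vector cells. KRT8 averaged 131 ± 2.82 CPM in KO-vector cells, against 85.7 ± 3.71 CPM in WT-vector cells, and CDH2 82.5 ± 4.53 CPM in KO-vector cells, against 60.4 ± 1.95 CPM in WT-vector cells (SD, n = 4). The part of such line differences in these values was not tested.

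Comparable contrasts were read in separate libraries. F137S cells against the libraries labelled KO plus SLC25A12-WT, in vehicle, gave 14 members higher and 15 lower, where 48.9% of all tested genes passed. Of the 28 calls of KO-vector against WT-vector cells, 26 (92.9%) had the same direction there, which is 89.7% of the 29, and 0 were opposite. KO-vector against WT-vector cells under antimycin gave 13 higher and 17 lower, where 48% of all genes passed, and 26 calls were shared in direction (92.9% of the 28 and 86.7% of the 30). Agreement over all called genes was not computed for either pair, so these shares do not set the members apart. CCNE2 was higher by 0.70 ± 0.05 in F137S cells than in labelled KO plus SLC25A12-WT and by 0.69 ± 0.05 in KO-vector than in WT-vector cells under antimycin. E2F2 differed by 0.45 ± 0.04 and 0.45 ± 0.04 and CCNE1 by -0.42 ± 0.04 and -0.32 ± 0.04 in these comparisons. F137S against KO-vector cells in vehicle gave 0 of 40 calls, with 0.0836% of all genes past the threshold. There 2 members had an unadjusted p under 0.05, beside 6.06% of all genes, and DESeq2 called 1. The libraries labelled KO plus SLC25A12-WT gave 14 members higher and 15 lower against KO-vector cells (47.8% of all genes). Against WT-vector cells they gave 0 (0% of all genes), with 1 member and 4.65% of all genes unadjusted and 0 members by DESeq2.

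**Figure D5:**
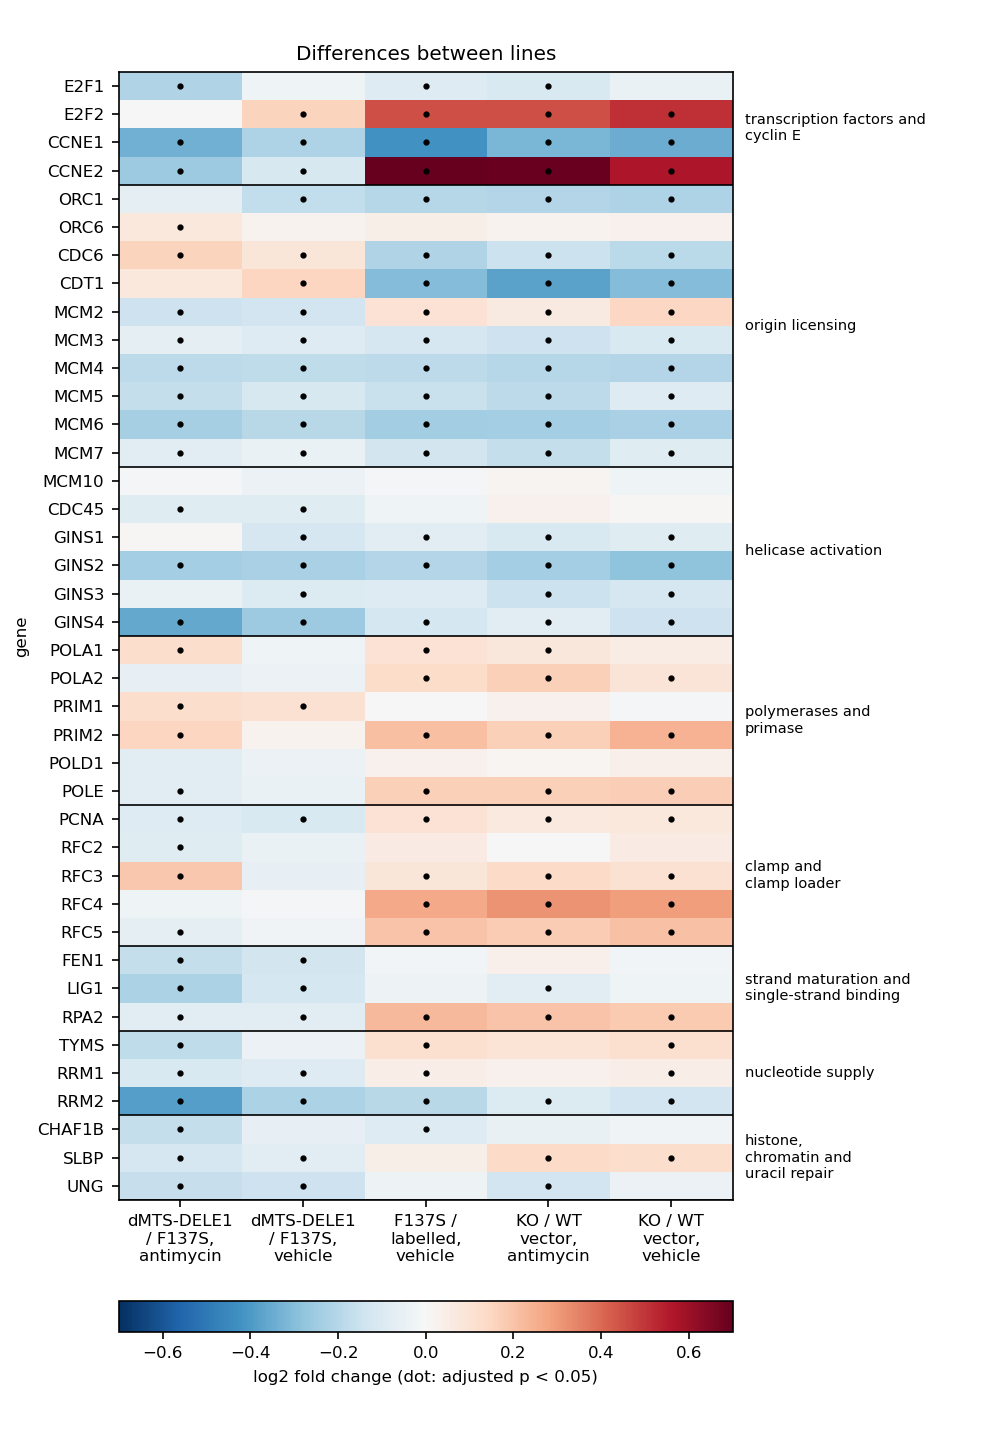
Colour gives the log2 fold change between lines for each of the 40 genes (rows, by role), with a dot at an adjusted p under 0.05; the columns are dMTS-DELE1 against F137S cells under antimycin and in vehicle, F137S cells against the libraries labelled KO plus SLC25A12-WT in vehicle, and KO-vector against WT-vector cells under antimycin and in vehicle. The last 3 columns show the same pattern of red and blue rows, with CCNE2 and E2F2 the reddest, and the first 2 are mostly blue.

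Cells with dMTS-DELE1 held lower levels of most replication genes than F137S cells. These lines also differed in SLC25A12 in vehicle, with 3716 CPM in dMTS-DELE1 and 1853 CPM in F137S cells (log2 fold change 1.00 ± 0.02). The part of that difference in the values below was not tested. In vehicle 4 members were higher and 22 lower, where 41.8% of all tested genes passed (17.7% higher and 24.1% lower), and the median of the 40 was -0.08, beside -0.02 for all genes. RRM2 had 291, 286, 296 and 287 CPM in dMTS-DELE1 cells, against 336, 338, 345 and 335 CPM in F137S cells. GINS4 had 66.0, 67.4, 71.6 and 67.8 CPM in dMTS-DELE1 cells, against 79.0, 78.5, 84.3 and 84.1 CPM in F137S cells. GINS2 had 76.2, 79.8, 78.8 and 76.8 CPM in dMTS-DELE1 cells, against 94.2, 89.4, 90.7 and 90.8 CPM in F137S cells. All 3 were lower without overlap, at -0.22 ± 0.02, adjusted p = 1.5e-15, for RRM2, -0.26 ± 0.03, adjusted p = 5.8e-10, for GINS4 and -0.23 ± 0.03, adjusted p = 6.9e-09, for GINS2 (log2 fold changes, edgeR). Each subunit of the helicase was lower, MCM6 (-0.19), MCM4 (-0.18), MCM2 (-0.13), MCM5 (-0.11), MCM3 (-0.09) and MCM7 (-0.05), and CCNE1 was lower at -0.22 ± 0.04.

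The genes that were higher in dMTS-DELE1 cells included both loading factors. E2F2 had 66.2, 67.7, 65.7 and 65.9 CPM in dMTS-DELE1 cells, against 61.5, 57.5, 58.2 and 60.9 CPM in F137S cells (0.16 ± 0.04, adjusted p = 3.1e-04, edgeR). CDT1 had 85.9, 88.0, 79.7 and 91.2 CPM in dMTS-DELE1 cells, against 79.0, 83.1, 71.8 and 77.1 CPM in F137S cells (0.15 ± 0.05, adjusted p = 0.014, edgeR). PRIM1 had 64.2, 61.6, 71.3 and 65.2 CPM in dMTS-DELE1 cells, against 63.5, 58.3, 62.1 and 59.7 CPM in F137S cells (0.11 ± 0.04, adjusted p = 0.015, edgeR). E2F2 did not overlap between the lines, CDT1 and PRIM1 did, and CDC6 was higher by 0.09 ± 0.03. Without dMTS-DELE1 vehicle replicate 4 CDT1 was not called (adjusted p = 0.072, edgeR), nor was PRIM1 without dMTS-DELE1 vehicle replicate 3 (log2 fold change 0.06, adjusted p = 0.205). Under antimycin 6 members were higher and 25 lower, where 54.3% of all genes passed (25.5% higher and 28.8% lower). In direction, 21 calls were the same as in vehicle (80.8% of the 26 and 67.7% of the 31) and 0 opposite. Agreement over all called genes was not computed here either. The log2 fold change under antimycin was -0.39 ± 0.02 for RRM2, -0.36 ± 0.03 for GINS4 and -0.34 ± 0.04 for CCNE1.

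Other cell cycle genes were compared between the same lines. CDKN1A averaged 26.8 ± 0.983 CPM in dMTS-DELE1 cells in vehicle, against 10.2 ± 0.793 CPM in F137S cells (SD, n = 4), a log2 fold change of 1.39 ± 0.07, adjusted p = 2.0e-30 (edgeR). CCND1, which encodes cyclin D1, averaged 77.1 ± 1.58 CPM in dMTS-DELE1 cells, against 98.7 ± 2.35 CPM in F137S cells (-0.36 ± 0.03). LIN54 (0.32 ± 0.04) and RBL1 (0.27 ± 0.04), of the same list of G1/S control genes, were higher in dMTS-DELE1 cells. The mean log2 CPM of that list was 6.17 ± 0.0414 in dMTS-DELE1 cells, against 6.14 ± 0.0152 in F137S cells, both in vehicle. Of the 27 G2 and mitosis genes, 1 was higher and 22 were lower in vehicle, with a median of -0.11, where 24.1% of all tested genes were lower. Of the 32 further replication factors, 3 were higher and 12 lower, 46.9% beside the 41.8% of all tested genes that passed.

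Levels differed widely among the members, as CPM per kilobase of GENCODE 29 exons in WT-vector cells in vehicle. PCNA stood at 185 ± 0.492 and the helicase subunits MCM7, MCM4, MCM2, MCM3, MCM6 and MCM5 at 173, 125, 106, 103, 90.9 and 58.2 (mean, with an SD for PCNA, n = 4). The RFC2, RFC3, RFC4 and RFC5 subunits, which sit in 1 complex, lay at 72.6, 70.6, 63.0 and 60.3 per kilobase, and GINS1, GINS2, GINS3 and GINS4 at 46.0, 40.6, 27.4 and 16.6. E2F1 had 35.2 ± 0.623, CCNE1 23.3 ± 1.61, E2F2 8.01 ± 0.53 and CCNE2 6.29 ± 0.35 CPM per kilobase. These lengths may differ from those of the gene models used for counting, which no label names.

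Over the 10 group means, the genes whose log2 CPM ran most like that of E2F1 were TRIM45 (Pearson r 0.996), MELTF-AS1 (0.995), SDC4 (0.995), SGK1 (0.994) and CABYR (0.994), given as a description over groups that share the drug. Among the other members UNG came nearest (0.957, rank 191 of the tested genes), then POLD1 (0.909) and CDC45 (0.893). RFC3 (-0.993) and POLA1 (-0.99) ran opposite to E2F1.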

How the data were processed

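The authors deposited raw counts per gene symbol for 40 libraries. The submitters' processing notes name HISAT2 2.1.0, featureCounts 2.0.6 and hg38, whereas settings, annotation, strandedness and the handling of read pairs are not given there or elsewhere in the sources used here. No library was pooled, and within-group pairs differed beyond sampling noise (chi-square per degree of freedom 2.87 to 5.54 over 60 pairs), so none was a duplicate. Library totals of 30730335 to 31965438 counts set the precision, and intervals cover the spread between these libraries.

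In R 4.3.3, edgeR 4.0.16 with limma 3.58.1 and statmod 1.5.0 filtered genes with filterByExpr, scaled libraries by TMM and fitted 1 coefficient per group over the 40 libraries with the robust quasi-likelihood test. P-values were adjusted by Benjamini-Hochberg over 16739 genes in each of 18 comparisons, with a threshold of 0.05. CPM values used TMM-scaled library sizes, and log2 CPM a prior count of 2. The procedure was tried on simulated counts for the antimycin response of WT-vector cells alone, with the same spread for every gene. The other comparisons were not simulated. Promoter sequences came from a RefSeq table on GRCh38.p14, gene overlaps and lengths from GENCODE 29, matched by symbol.

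The 40 members and the further gene lists were chosen with earlier results of these data known. Values per library are given for the control genes and, in each role group, for up to 3 members with the largest called change per comparison. From each other list at most 4 genes are named per comparison, apart from CDKN1A and CDKN1B. Promoters are given for the 3 highest and 3 lowest mean responses outside chromosome 8. Of the 18 comparisons 3 were added after seeing the data: F137S against labelled KO plus SLC25A12-WT in vehicle, KO vector against WT vector under antimycin, and dMTS-DELE1 against F137S under antimycin. Alternatives were DESeq2 1.42.0 (size factors, Wald test), no filter on low counts, halved counts, a fit with only the groups compared, a 1.5-fold minimum, blocking on replicate number, a prior count of 0.5, leaving out the labelled KO plus SLC25A12-WT libraries, and each library left out in turn.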

Additional observations from a re-analysis of the deposited data

Results flagged for a closer look

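In 250 tests of 25 genes over the 10 groups of 4 libraries, 11 (4.4%) had a library whose gap to its nearest neighbour passed Dixon's limit, and chance gives about 1 in 20. By CPM, these were CCNE1 in replicate 2 of WT-vector cells under antimycin (57.92) and replicate 1 of the vehicle libraries labelled KO plus SLC25A12-WT (47.26), CCNE2 in replicate 3 of the antimycin libraries labelled KO plus SLC25A12-WT (23.99), and CDT1 in replicate 4 of WT-vector cells under antimycin (109.8). CDC6 stood apart in replicate 1 of dMTS-DELE1 cells under antimycin (166.6) and in replicate 2 of the same cells in vehicle (134). In WT-vector cells under antimycin, replicate 2 stood apart for GINS3 (54.2) and FEN1 (209.3), and in vehicle replicate 4 did for UNG (227.6). The others were LIG1 in replicate 2 of F137S cells under antimycin (128.8) and GINS2 in replicate 1 of KO-vector cells under antimycin (95.7). Replicate 2 of WT-vector cells under antimycin appeared 3 times, and no other library more than once.

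The antimycin response of dMTS-DELE1 cells minus that of F137S cells passed edgeR's quasi-likelihood test of the difference for 6 members. The differences in log2 fold change were 0.2488 for RFC3, 0.1572 for POLA1, 0.1281 for GINS1, -0.1589 for E2F2, -0.1625 for RRM2 and -0.1779 for E2F1, and their place among all tested genes (11.9% called) is given above.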

How the results depend on the processing

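The members' changes were small: with a minimum of 1.5-fold, 0, 1, 2, 1 and 2 members were called in the antimycin responses of dMTS-DELE1, F137S, labelled KO plus SLC25A12-WT, KO-vector and WT-vector cells. The same minimum left 0 for dMTS-DELE1 against F137S cells in vehicle and under antimycin and for the difference of their responses. It left 1 for F137S against labelled KO plus SLC25A12-WT and 1 for labelled KO plus SLC25A12-WT against KO vector in vehicle, and for KO vector against WT vector 1 under antimycin and 0 in vehicle. For the KO-vector minus WT-vector response, with 0 calls, halved counts gave 3, DESeq2 size factors 1, DESeq2's Wald test 3 and leaving out the labelled KO plus SLC25A12-WT libraries 2. For the labelled KO plus SLC25A12-WT minus KO-vector response, with 0 calls, halved counts, DESeq2 size factors, DESeq2's Wald test and no filter on low counts each gave 1, and for F137S against KO vector in vehicle DESeq2's Wald test gave 1. All other counts under these alternatives lay within 1.5 times the reported ones, and the cause of the changes was not tested.

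With a library left out, the calls numbered 20 to 24, 26 to 31, 24 to 29, 27 to 29 and 24 to 28 in the responses of dMTS-DELE1, F137S, labelled KO plus SLC25A12-WT, KO-vector and WT-vector cells. They numbered 21 to 27 and 29 to 31 for dMTS-DELE1 against F137S cells in vehicle and under antimycin, 26 to 28 and 27 to 31 for KO vector against WT vector in vehicle and under antimycin, 28 to 29 for labelled KO plus SLC25A12-WT against KO vector and 26 to 28 for F137S against labelled KO plus SLC25A12-WT. For the differences of response they numbered 4 to 8 for dMTS-DELE1 minus F137S (4 without F137S antimycin replicate 3, against 6), 0 to 2 for KO vector minus WT vector (2 without WT-vector antimycin replicate 4) and 0 to 1 for labelled KO plus SLC25A12-WT minus KO vector. Of the values of called named members under these alternatives, other than the 1.5-fold minimum and the prior count, 3130 kept their direction and side of the threshold, 131 lost the call and 0 turned round.

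Replicate numbers did not pair libraries: same-numbered libraries of different groups had deviations with a mean correlation of -0.00102 (-0.0588 to 0.051 over 180 pairs). With the replicate block, 28 members were called in the WT-vector response (29 without it), 25 for dMTS-DELE1 against F137S in vehicle (26 without it) and 28 for labelled KO plus SLC25A12-WT against KO vector (29 without it), and the other counts were equal.

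Bulk counts after 6 hours give no phase of the cycle and no protein. Each line is a single one here, so a genotype and the line that carries it cannot be told apart.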
